A study of Mus musculus with 4 samples.

Results

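Cadherins and protocadherins are the 93 genes, of 36528 rows in the count tables, whose symbols start with Cdh or Pcdh followed by a letter or digit, leaving out the cadherin-related Cdhr genes. By family they were 5 type I classical cadherins, 13 type II classical cadherins, 5 other cadherins, 4 delta-1, 5 delta-2 and 3 other non-clustered protocadherins, and 14 alpha, 22 beta and 22 gamma protocadherins of the 3 gene clusters. They were measured by droplet single-cell RNA sequencing of papain-dissociated cortex from C57BL/6 mouse embryos at E16.5, in 2 libraries labelled HET and 2 labelled COP1 KO, the latter titled CKO. The labels define neither the alleles behind HET nor a Cre driver, so both groups are named here only as labelled, and all 4 libraries share strain, age and tissue. COP1 picks substrates for a ubiquitin ligase, and transcription factors of the Jun and PEA3 (ETS) groups are among its known targets. The comparison of the 2 labels asks what changes when COP1 is removed, and the comparisons of cell classes ask which cells use which adhesion genes.

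Cadherins are calcium-dependent adhesion proteins. Classical cadherins bind their own kind on the next cell and hold the actin cytoskeleton through catenins, and in the developing cortex they hold radial glia together at the ventricle and sort neurons by layer and area. Delta-protocadherins adhere weakly, and several recruit the WAVE complex, which drives actin branching. The clustered protocadherins are chosen promoter by promoter in each neuron, with help from CTCF and cohesin, and give neurons surface identities used in self-recognition.

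The deposited tables held 28327090 and 28071382 counts in the HET libraries and 28049007 and 28988265 in the COP1 KO libraries, and 18784 of 19237 barcodes were kept, with medians of 4483 to 5444 counts per cell. 173 barcodes occurred in 2 or more libraries. The library of COP1 KO replicate 1 had the lowest median count per cell and differed from the rest in several members, and calls that ended without it are named beside the result. Cop1 itself appears as Rfwd2, and its depth-scaled count (CPM, as for all levels here) was 32.1 and 39.4 in HET libraries against 30.7 and 29.8 in COP1 KO libraries. The deleted part of the gene is not given, so these 3′ counts do not check the labels. Cells were clustered without any cadherin or protocadherin and named by marker lists, giving 23 classes. 1 class resembled layer 6 neurons (1640 cells), 1 resembled upper-layer neurons (3217 cells), and 6 further excitatory clusters carry only their 2 leading genes as names. No cluster of this clustering met the limits set for a layer 5 or subplate name. The excitatory Rprml cluster scored 1.43 for subplate markers and 1.23 for layer 6 markers, closer than the margin of 0.3 needed for a name. Although the tissue is labelled cortex, 1706 cells resembled striatal projection neurons and 1219 resembled progenitors of the ganglionic eminence.

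36 of the 93 rows do not hold separate measurements. Every one of the 14 alpha rows contained the same count in the same cells, 10972 in all, which made up 99.11% to 99.95% of each row, and every one of the 22 gamma rows contained another shared count of 19762, or 98.75% to 99.96%. The alpha genes share their last exons, and so do the gamma genes. In the GENCODE M21 transcripts, a stretch of 2860 bases was held by the transcripts of all 13 alpha genes found there, and a stretch of 2116 bases by those of all 22 gamma genes. The 22 beta genes each have a transcript of a single exon and no shared end. Here the 2 shared counts are given once each, as Pcdha shared and Pcdhg shared, and with the other 57 rows they make 59 measured units. What remained of each alpha or gamma row was 6 to 251 counts over 4 libraries, too few to describe which isoform a cell class used.

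Of the 59 units, 28 reached a mean of 20 CPM in at least 1 class (27 with the 18 erythroid-like cells left out) and 5 stayed under 1 CPM in every class. Cdh16, a cadherin of kidney, and Pcdhb1 had 0 counts in all cells, which allows up to 3 counts in the whole data set. Cdh1, the cadherin of epithelia, had 8 counts. Pcdhg shared was at 20 CPM or above in 22 of the 23 classes and at 19.6 CPM in the microglia-like class, so no unit reached 20 CPM in every class. Its erythroid-like level rests on 5 counts. Cells were also thinned to 2000 counts each, which left out 173 shallower cells, 148 of COP1 KO replicate 1, 25 of COP1 KO replicate 2 and 0 of HET. At this depth a cell of the excitatory Rprml cluster held 2.81 ± 0.305 of the 59 units (SD, n = 4 libraries), a layer-6-like cell 2.54 ± 0.0979, a radial glia-like cell 1.36 ± 0.0654 and a microglia-like cell 0.232 ± 0.131. The numbers of detected members in layer-6-like and radial glia-like cells did not overlap between the 4 libraries of each.

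**Figure D1:**
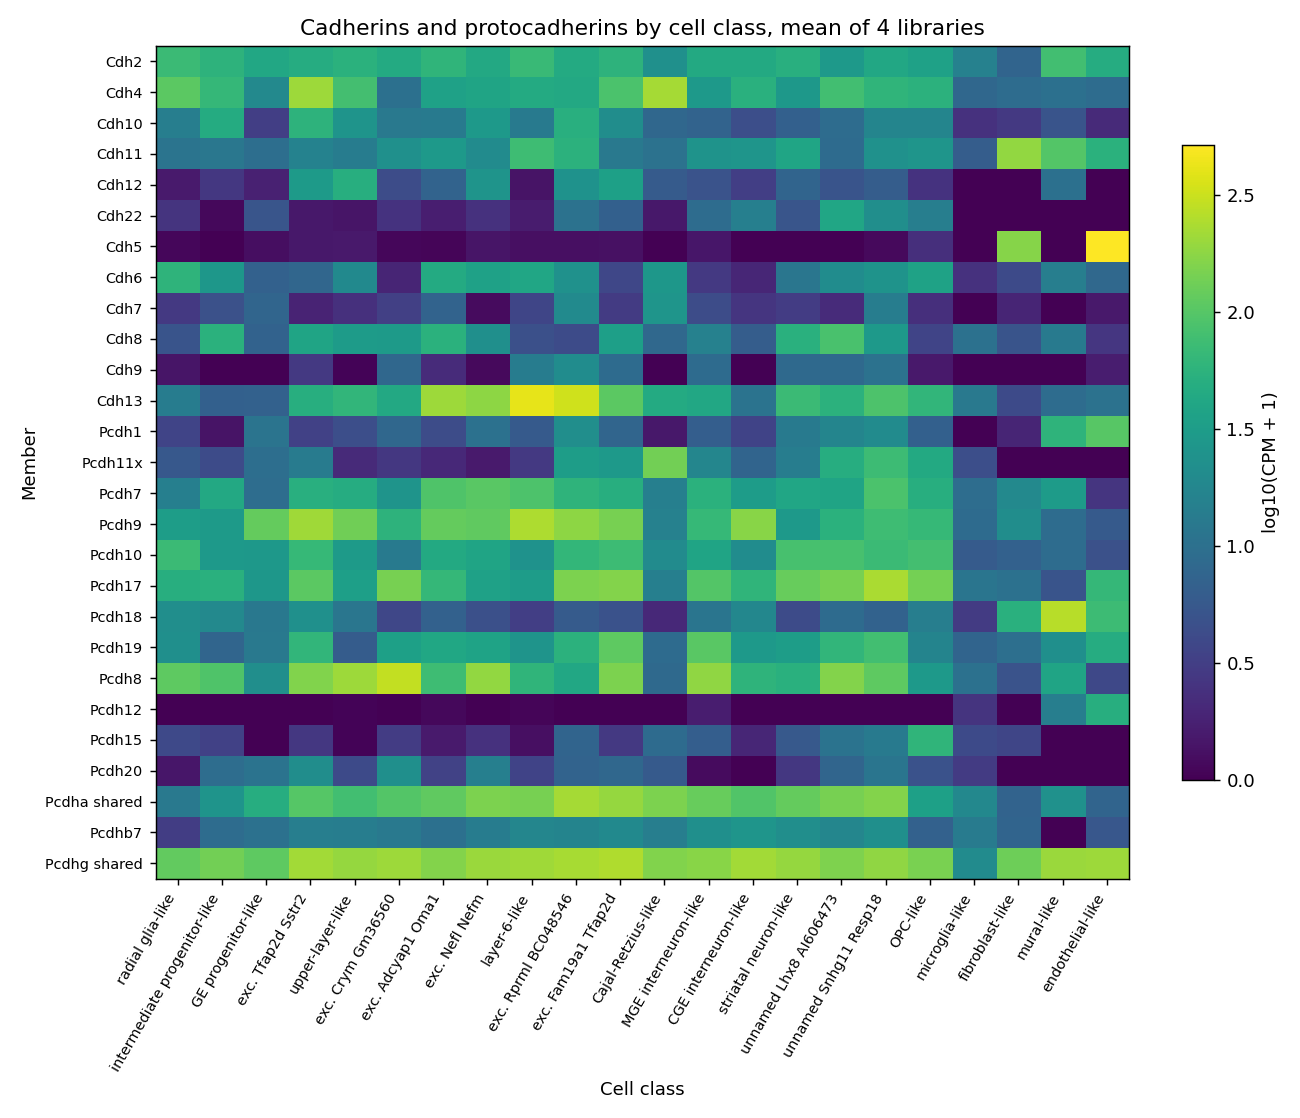
Mean level over 4 libraries, as log10(CPM + 1), of each cadherin or protocadherin that reached 20 CPM in a class (rows, ordered by family) in 22 cell classes (columns, the 18 erythroid-like cells left out). Cdh5 is brightest in the endothelial-like class at 518 CPM, Cdh13 in the layer-6-like class at 407 CPM, and Pcdhg shared is bright in nearly every column.

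Layer-6-like and upper-layer-like excitatory neurons differed in 5 type II cadherins, 3 delta-2 protocadherins, Cdh13 and Cdh15. 31 of the 59 units passed the filter on low counts in the comparison of layer-6-like with upper-layer-like neurons, and 10 of these differed at least 2-fold at an adjusted p under 0.05 (edgeR, with the library as a block), 6 higher and 4 lower in layer 6. Of all 12869 genes tested, 14.1% differed in this way, 8.41% higher and 5.73% lower. The median difference was 0.49 over the members tested and -0.01 over all genes, on the log2 scale.

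Cdh13 encodes T-cadherin, which is held in the membrane by a lipid anchor and lacks the catenin-binding tail. In upper-layer-like cells it stood at 59.8 and 53.1 CPM in HET and 68.4 and 61.2 CPM in COP1 KO, and in layer-6-like cells at 389 and 385 CPM in HET and 433 and 423 CPM in COP1 KO. No library of 1 class overlapped with the other, and the difference was 2.79 on the log2 scale (SE 0.0968, adjusted p = 9.45e-41). At 2000 counts per cell, 54.1% of layer-6-like cells (95% exact interval 51.6% to 56.5%) and 9.51% of upper-layer-like cells (8.52% to 10.6%) held a Cdh13 count, and without thinning the means over libraries were 85.6% and 21.9%. Over all classes the order of Cdh13 levels ran from layer-6-like (407 ± 24.2 CPM, SD, n = 4) to the excitatory Rprml cluster (328 ± 43.2 CPM), the Adcyap1 cluster (206 ± 19.2 CPM) and the Nefl cluster (177 ± 17.7 CPM). The libraries of the last 2 overlapped.

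Cdh12, a type II cadherin of brain, ran the other way. It stood at 53.9, 43.9, 44.2 and 55.2 CPM in the upper-layer-like cells of HET replicates 1 and 2 and COP1 KO replicates 1 and 2, and at 0, 0, 0.759 and 0.847 CPM in their layer-6-like cells. The layer-6-like value rests on 4 counts, and the fitted difference was -6.62 on the log2 scale (SE 0.363, adjusted p = 5.04e-28). At equal depth 8.48% of upper-layer-like cells (7.54% to 9.50%) and 0.184% of layer-6-like cells (0.0379% to 0.536%) held a Cdh12 count. The excitatory Fam19a1 cluster, at 34.0 ± 1.88 CPM, and the Tfap2d Sstr2 cluster, at 29.2 ± 4.14 CPM, came next in order after the upper-layer-like class (49.3 ± 6.06 CPM).

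Cdh11, best known from mesenchyme, stood at 14.7, 9.87, 15.05 and 11.9 CPM in upper-layer-like cells and 72.8, 63.0, 67.5 and 88.1 CPM in layer-6-like cells (log2 difference 2.53, SE 0.118). Pcdh19, the delta-2 protocadherin mutated in an X-linked epilepsy, rose from 5.14 ± 2.15 CPM in upper-layer-like to 24.6 ± 3.24 CPM in layer-6-like cells (log2 difference 2.28, SE 0.193). Cdh6 was higher in layer 6 by 1.12 (SE 0.197), with 24.0, 18.8, 14.3 and 16.4 CPM in upper-layer-like and 57.6, 42.3, 26.2 and 30.9 CPM in layer-6-like cells. Each library's layer-6-like cells exceeded its own upper-layer-like cells in all 3 genes. The Cdh6 difference fell under 2-fold with a finer clustering (0.76) and with suspected doublets kept (0.64). Cdh15 (M-cadherin, known from muscle) was also called higher in layer 6, by 1.64 (SE 0.474), from 3.21 ± 1.23 against 1.0 ± 0.435 CPM. Cdh9 had 127 counts in layer-6-like and 1 in upper-layer-like cells, a ratio of 218 per unit of total count (95% counting interval 38.4 to 8662).

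Among the members lower in layer 6, Cdh8 stood at 29.2, 38.1, 26.3 and 26.9 CPM in upper-layer-like and 4.67, 5.18, 2.66 and 2.12 CPM in layer-6-like cells (log2 difference -2.98, SE 0.206). Pcdh8, an activity-regulated delta-2 protocadherin also called arcadlin, stood at 209 ± 11.5 and 58.5 ± 12.3 CPM (-1.81, SE 0.106). Pcdh18, the remaining one, stood at 10.6 ± 1.59 and 2.19 ± 1.53 CPM (-2.23, SE 0.322). So within the delta-2 family Pcdh8 and Pcdh18 were lower and Pcdh19 higher in layer-6-like than in upper-layer-like cells. The upper-layer-like class joined a cluster of 1676 cells led by Pdzrn3 and Unc5d (median 4051 counts per cell) with another of 1541 cells (median 6404). How far the 2 classes differ in maturity was not tested, so these differences are between classes and need not be of layer alone. Several broadly present members differed by less than 2-fold, among them Cdh2, the N-cadherin of neural junctions (0.42), Pcdhg shared (0.17), Pcdh9 (0.88), Pcdh7 (0.98), Pcdha shared (0.94), Cdh4 (-0.79) and Cdh10, just short of 2-fold at -0.995.

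**Figure D2:**
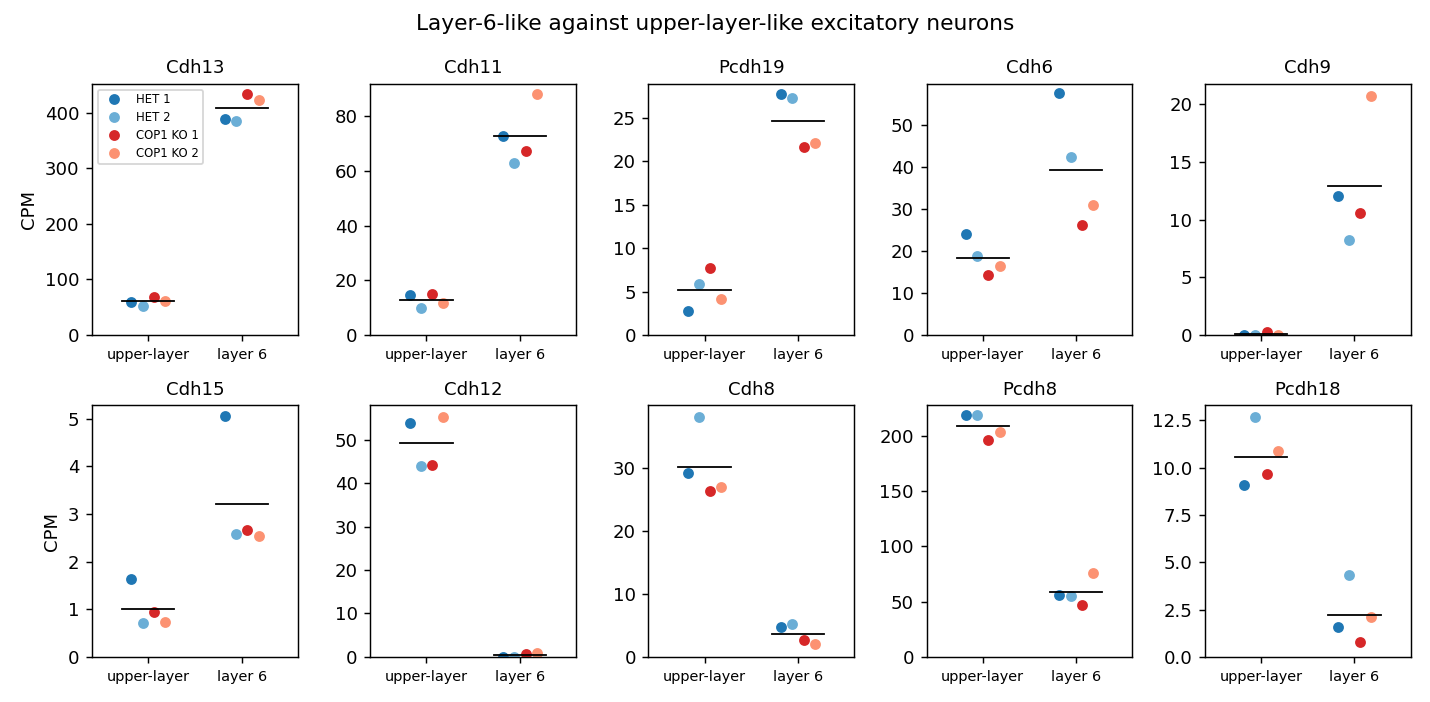
CPM of the 10 members that differed at least 2-fold between upper-layer-like and layer-6-like neurons. Points are the 4 libraries (HET blue, COP1 KO red), lines are their means, and each panel has its own axis from 0. Cdh13 sits at 385 to 433 CPM in layer-6-like cells and 53.1 to 68.4 CPM in upper-layer-like cells.

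Promoter sequence from RefSeq (build GRCm38.p6) was available for 22 members and not for Cdh4, Cdh5, Cdh11 or Cdh13. Cdh6 and Cdh9, both higher in layer 6, are shown because they share a stretch of letters. Both lie on chromosome 15, with Cdh6 at 13028699 to 13176407 and Cdh9 at 16728550 to 16857138, as do Cdh10 and Cdh12, which were lower in layer 6 (-0.995, under 2-fold, and -6.62), and Cdh18. The sequence runs 5′ to 3′ on the gene's strand, before a RefSeq start that lies inside the span of each gene, not at its outer end. For Cdh6 it is the 250 bases before that inner start (chr15:13173676-13173925, minus strand). For Cdh9 it is the first 91 bases of such a window (chr15:16728665-16728755, plus strand), whose remaining bases lie in annotated exons. Capitals mark a run of 15 bases that both hold.
Cdh6: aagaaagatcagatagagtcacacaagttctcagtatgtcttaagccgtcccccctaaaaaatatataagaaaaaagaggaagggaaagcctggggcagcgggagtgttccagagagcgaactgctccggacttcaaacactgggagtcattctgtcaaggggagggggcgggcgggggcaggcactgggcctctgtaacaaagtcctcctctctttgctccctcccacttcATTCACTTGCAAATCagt
Cdh9: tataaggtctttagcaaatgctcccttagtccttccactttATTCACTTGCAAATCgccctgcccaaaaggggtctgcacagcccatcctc
The run starts 18 bases before the inner start of Cdh6 and 209 bases before that of Cdh9. Of 32851 RefSeq promoter windows of this length, 2 hold it, on either strand. It was found by comparing 296 pairs of member promoters after the values were known, and 1 other pair, Cdh26 and Pcdh7, shared a run as long. It is a description of the letters and not a site.

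Other excitatory clusters had patterns of their own, given as levels without a test. Pcdh8 was highest in the excitatory Crym cluster, at 339 and 305 CPM in HET and 252 and 272 CPM in COP1 KO. The same cluster held Pcdh17, another delta-2 protocadherin, at 142 ± 17.8 CPM, against 30.7 ± 2.83 CPM in layer-6-like and 32.7 ± 7.53 CPM in upper-layer-like cells. Pcdh17 was higher still in the Fam19a1 cluster (163 ± 20.7 CPM) and in an unnamed cluster led by Snhg11 and Resp18 (235 ± 32.4 CPM). The Fam19a1 cluster also led Pcdh19, at 109.5 ± 19.7 CPM, a level that overlapped with that of the MGE interneuron-like class (103 ± 4.27 CPM).

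Cdh4, the type I cadherin also called R-cadherin, was highest in 2 classes. Cajal-Retzius-like cells, the early Reln-expressing neurons of the marginal zone, held it at 218 and 204 CPM in HET and 300 and 177 CPM in COP1 KO, and the Tfap2d Sstr2 cluster at 209, 194, 231 and 200 CPM. The levels of these 2 classes overlapped, and radial glia-like cells came next at 107 ± 20.6 CPM. Cajal-Retzius-like cells also led Pcdh11x, an X-linked delta-1 protocadherin, at 120, 164, 101 and 157 CPM, and the Snhg11 cluster came next at 71.4 ± 18.5 CPM. The Adcyap1 cluster held Cdh8 at 53.5 ± 8.22 CPM and Cdh6 at 54.3, 61.7, 31.1 and 30.3 CPM, and its Cdh6 values did not overlap between HET and COP1 KO.

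MGE-like and CGE-like interneurons, named for the medial and caudal ganglionic eminences where they are born, differed in 5 of 31 members tested, 4 higher and 1 lower in MGE-like cells, beside 5.07% of all genes, 3.26% higher and 1.81% lower. Pcdh19 stood at 109, 102, 99.3 and 104 CPM in MGE-like cells and 27.7, 25.3, 31.8 and 27.2 CPM in CGE-like cells, with no overlap (log2 difference 1.96, SE 0.245, adjusted p = 1.38e-09, edgeR). Pcdh8 stood at 184 ± 17.5 and 56.9 ± 26.9 CPM (1.71, SE 0.203) and Cdh13 at 41.1 ± 10.9 CPM in MGE-like cells, higher by 2.08 (SE 0.422). Pcdh9 was the member lower in MGE-like cells, at 55.4, 71.7, 67.2 and 67.1 CPM against 204, 181, 159 and 144 CPM (-1.37, SE 0.164). Cdh9 had 38 counts in MGE-like and 0 in CGE-like cells, which makes it at least 3.50-fold higher against a floor of 3 counts over the class. Its MGE-like level was 20 CPM in HET replicate 1 and 3.98, 1.07 and 6.71 CPM in the others, and it was not called without HET replicate 1 (log2 difference 5.54). With suspected doublets kept and the cells clustered again, the CGE-like class held 836 cells in place of 388, and 11 members were called in place of 5.

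Against excitatory neurons as a whole, cortical interneuron-like cells differed in 10 of 30 members tested, 4 higher and 6 lower, beside 12.8% of all genes (5.26% higher, 7.56% lower). The lower members were 4 type II cadherins, Cdh13 and Pcdh20, and the higher ones were 3 protocadherins and Cdh22. Cdh6 fell from 27.0, 24.5, 16.54 and 20.2 CPM in excitatory cells to 4.13, 0.781, 0 and 1.54 CPM in interneuron-like cells (log2 difference -3.60, SE 0.453). Cdh12 (-2.61, SE 0.284), Cdh13 (-2.25, SE 0.126), Cdh10 (-1.92, SE 0.25) and Cdh8 (-1.10, SE 0.174) were lower too. Pcdh20 had 1 count in interneuron-like and 471 in excitatory cells, a ratio of 42.5 (95% counting interval 7.60 to 1683). Cdh22 rose from 1.73 ± 0.635 to 9.46 ± 3.20 CPM (2.35, SE 0.307), Pcdh15 from 1.12 ± 0.272 to 4.52 ± 1.46 CPM (1.94, SE 0.411) and Pcdh19 from 35.6 ± 3.99 to 87.2 ± 2.58 CPM (1.26, SE 0.110). Pcdh11x was higher by 1.22 (SE 0.279), and by 0.94, under the 2-fold limit, without COP1 KO replicate 1.

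Striatal projection neuron-like cells, the inhibitory output neurons of the striatum, differed from cortical interneuron-like cells in 12 of 30 members, 7 higher and 5 lower, beside 10.8% of all genes (5.13% higher, 5.66% lower). Pcdh10, also called OL-protocadherin, stood at 74.7, 97.8, 83.1 and 77.9 CPM in striatal-like and 35.4, 39.8, 29.4 and 31.5 CPM in interneuron-like cells (log2 difference 1.31, SE 0.142, adjusted p = 3.25e-10, edgeR). Cdh8 stood at 51.7 ± 12 against 12.8 ± 4.97 CPM (2.0, SE 0.183). Cdh6 (2.53, SE 0.616), Cdh15 (1.80, SE 0.608), Pcdh1 (1.28, SE 0.316) and Cdh13 (1.04, SE 0.156) were also higher. 4 protocadherins were lower, namely Pcdh18 (-1.88, SE 0.385), Pcdh9 (-1.61, SE 0.121), Pcdh8 (-1.57, SE 0.132) and Pcdh19 (-1.44, SE 0.144), together with Cdh22 (-1.08, SE 0.360). Pcdh20 had 12 counts in striatal-like and 1 in interneuron-like cells (ratio 9.71, 95% counting interval 1.44 to 415). Cdh13 was not called without HET replicate 2 (0.93), Cdh15 without HET replicate 1 (1.31) and Pcdh1 with doublets kept (0.75). Cdh22 was not called without COP1 KO replicate 1 (-0.96) or 2 (-0.92) or with the finer clustering (-0.87), and Pcdh20 not without HET replicate 2 (2.78) or COP1 KO replicate 1 (2.85), with no library block (3.04) or with doublets kept (0.15). An unnamed cluster with Lhx8 among its leading genes, a factor of the ventral forebrain, led Cdh8 at 84.9 ± 7.59 CPM and Cdh22 at 39.6 ± 19.3 CPM.

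Radial glia, whose cell bodies border the ventricle, are the stem cells of the cortex. Against excitatory neurons, radial glia-like cells were lower in 15 and higher in 4 of 30 members tested, beside 18.6% of all genes lower and 20.3% higher (39.0% in all). The median difference was -1.10 over the members tested and 0.03 over all genes, on the log2 scale. The members higher in radial glia-like cells were Cdh20 (2.55, SE 0.336), Pcdh18 (1.62, SE 0.187), Cdh6 (1.27, SE 0.161) and Pcdh15 (1.22, SE 0.393). The Cdh6 difference is from all excitatory classes pooled. Cdh6 in radial glia-like cells (57.6 ± 14.3 CPM) overlapped with that in the Adcyap1 cluster (44.4 ± 16.1 CPM) and in layer-6-like cells (values above). The largest fitted falls were in Cdh12 (-5.33, SE 0.359), Pcdh20 (-4.07, SE 0.429) and Cdh13 (-3.74, SE 0.135). Pcdh9 (-2.29, SE 0.0900), Pcdh7 (-2.29, SE 0.150), Cdh8 (-2.88, SE 0.197), Cdh9 (-3.47, SE 0.557), Cdh11 (-1.61, SE 0.146) and Pcdh1 (-1.28, SE 0.294) were lower as well, and Cdh15 had 3 counts against 179 (ratio 8.61, 95% counting interval 2.90 to 42.1). The remaining calls were clustered protocadherins. Cdh2, which joins radial glia at their ventricular endfeet, differed little between these classes, at 70.7 ± 2.66 CPM in radial glia-like and 54.0 ± 2.68 CPM in excitatory cells. The Cdh6 call fell under 2-fold without COP1 KO replicate 1 (0.95) and the Pcdh15 call without HET replicate 1 (0.94).

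Intermediate progenitors arise from radial glia and divide to make excitatory neurons. Their class differed from radial glia-like cells in 15 of 30 members, 8 higher and 7 lower, beside 20.9% of all genes (8.30% higher, 12.6% lower). Cdh8 rose from 3.65, 3.90, 5.94 and 2.59 CPM in radial glia-like to 56.2, 57.1, 46.8 and 50.1 CPM in intermediate progenitor-like cells (log2 difference 3.67, SE 0.206, adjusted p = 1.63e-19, edgeR). Cdh10, another type II cadherin, rose from 11.5, 17.8, 14.6 and 10.8 to 56.2, 45.6, 32.7 and 50.7 CPM (1.73, SE 0.182). In both genes every library of the progenitor class lay above every library of radial glia. Pcdh20 rose by 4.04 (SE 0.500) from 0.477 ± 0.556 to 8.44 ± 3.71 CPM, and Pcdh7 by 1.59 (SE 0.189). Pcdh10 fell from 69.8 ± 5.50 to 27.7 ± 8.57 CPM (-1.37, SE 0.138), and Pcdh19 (-1.72, SE 0.242), Cdh20 (-1.21, SE 0.411), Cdh13 (-1.17, SE 0.294) and Cdh6 (-1.15, SE 0.210) were lower. Cdh22 had 1 count against 14 (ratio 11.5, interval 1.75 to 486) and Pcdh1 3 against 22 (ratio 6.02, interval 1.81 to 31.4). These differences depended on which cells made up the class, which held 1500 cells here. With the finer clustering only clusters of 391 and 355 cells bore the name, and an unnamed cluster of 756 cells was led by Tac2, Sstr2 and Neurod1. With suspected doublets kept, the named clusters held 435 and 373 cells. With the finer clustering 2 members were called higher and 7 lower, and with suspected doublets kept 3 higher and 6 lower. Cdh10 then stood at 0.97 and 0.996, Pcdh7 at 0.38 and 0.43, and Cdh20 at -0.64 and -0.71, each without a call, while Cdh8 and Pcdh20 were called in both. Cdh13 was not called with doublets kept (-0.92) or without HET replicate 2 (-0.77), Cdh20 without HET replicate 2 (-1.16) or COP1 KO replicate 2 (-0.93), and Cdh22 without COP1 KO replicate 2 (-2.48).

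Progenitors of the ganglionic eminence, which make inhibitory neurons, differed from radial glia-like cells in 17 of 30 members, 9 higher and 8 lower, beside 21.7% of all genes (8.14% higher, 13.6% lower). Cdh4 stood at 13.7, 19.3, 23.4 and 15.2 CPM in them and at 80.8, 109, 131 and 106 CPM in radial glia-like cells (log2 difference -2.503, SE 0.168, adjusted p = 7.1e-17, edgeR). Pcdh8 fell by 2.30 (SE 0.176), Cdh6 by 3.14 (SE 0.327), Pcdh10 by 1.25 (SE 0.154) and Cdh13 by 1.02 (SE 0.332), and Cdh10 was lower too (-2.495, SE 0.401). Pcdh15 had 0 counts against 25, at least 4.58-fold lower with a floor of 3 counts over the class, and Cdh20 2 against 59 (ratio 16.2, interval 4.30 to 137). Pcdh9 was higher, at 119, 125, 119 and 110 CPM against 30.7, 24.7, 33.4 and 36.2 CPM (1.98, SE 0.109), with no overlap. Pcdh20 (4.29, SE 0.520), Pcdh1 (2.05, SE 0.359), Cdh7 (1.91, SE 0.436) and Cdh22 (1.43, SE 0.516) were also higher. This class joined a cluster of 646 cells led by Vax1 and Sp8 with another of 573 cells led by Vax1 and Top2a. With the finer clustering clusters of 575 and 200 cells bore the name, and an unnamed cluster of 448 cells was led by Sp8 and Vax1. With suspected doublets kept, the named cluster held 770 cells, and the CGE-like class 836 in place of 388. The part of interneuron-like cells in these differences was not tested. With the finer clustering Pcdh10 (-0.99), Cdh13 (-0.95) and Cdh22 (0.74) were not called. Cdh13 also lost its call without HET replicate 1 (-0.96), HET replicate 2 (-0.85) or COP1 KO replicate 2 (-0.85), and Cdh22 with doublets kept (0.17) or without HET replicate 1 (1.19), HET replicate 2 (1.46) or COP1 KO replicate 1 (1.39). Both progenitor classes were thus above radial glia in Pcdh20, while Cdh10 was above radial glia in 1 and below it in the other.

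Pcdha shared and the 4 beta protocadherins that could be tested were low in radial glia and higher in excitatory neurons. Pcdha shared stood at 13.6, 7.79, 13.7 and 11.2 CPM in radial glia-like cells and at 130, 117, 116 and 121 CPM in excitatory neuron-like cells (log2 difference -3.51, SE 0.0991, adjusted p = 2.95e-31, edgeR). Intermediate progenitor-like cells held 24.5 ± 3.71 CPM and ganglionic eminence progenitor-like cells 48.6 ± 5.96 CPM, and the 4 classes did not overlap in any library. Among excitatory classes the level ran from 77.2 ± 4.15 CPM in upper-layer-like cells to 145 ± 12.3 CPM in layer-6-like cells and 222 ± 23.5 CPM in the Rprml cluster. Cortical interneuron-like cells held 114 ± 6.07 CPM, oligodendrocyte precursor-like cells 34.0 ± 5.82 CPM and endothelial-like cells 6.56 ± 2.26 CPM. At 2000 counts per cell 2.30% of radial glia-like cells (95% exact interval 1.55% to 3.29%) and 26.8% of layer-6-like cells (24.6% to 29.0%) held such a count (6.99% and 57.2% without thinning, as means over libraries).

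The beta genes share no end and were counted one by one, and 4 of the 22 passed the filter on low counts. Their summed level was 14.2 ± 3.8 CPM in radial glia-like, 37.8 CPM in intermediate progenitor-like, 69.3 CPM in excitatory and 78.5 CPM in cortical interneuron-like cells. Pcdhb20 (-3.27, SE 0.350), Pcdhb7 (-2.80, SE 0.295), Pcdhb9 (-2.69, SE 0.398) and Pcdhb17 (-2.09, SE 0.307) were called lower in radial glia-like than in excitatory cells, and the summed level was not tested. Against radial glia-like cells, Pcdhb7 was higher by 1.89 (SE 0.403) in intermediate progenitor-like and by 2.19 (SE 0.424) in ganglionic eminence progenitor-like cells. Pcdhb20 was higher by 1.71 (SE 0.529) and 1.81 (SE 0.579), and Pcdhb17 by 1.29 (SE 0.419) and 1.53 (SE 0.449). Pcdha shared was higher by 1.06 (SE 0.151) and 2.15 (SE 0.141). For intermediate progenitors none of these 4 calls held with the finer clustering or with suspected doublets kept, where Pcdhb7 stood at 0.80 and 0.88, Pcdhb20 at 1.08 and 0.76, Pcdhb17 at 0.57 and 0.42, and Pcdha shared at 0.04 and 0.24, and Pcdhb20 was not called without HET replicate 2 (1.33). For ganglionic eminence progenitors Pcdhb20 was not called with the finer clustering (0.89), with doublets kept (0.55) or without COP1 KO replicate 1 (1.69) or 2 (1.68), and Pcdhb17 not with the finer clustering (1.15) or without HET replicate 1 (0.97). Pcdhb7 stood at 22.4 ± 6.00 CPM in cortical interneuron-like cells.

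Pcdhg shared was present in progenitors and in cells of the vessel wall. It stood at 113, 127, 91.9 and 129 CPM in radial glia-like and 220, 218, 162 and 205 CPM in excitatory cells, a difference of -0.92 on the log2 scale that did not reach 2-fold. Endothelial-like cells held 206 ± 48.4 CPM and mural-like cells 203 ± 45.1 CPM, within the range of neurons, beside 6.56 CPM of Pcdha shared in the former. COP1 KO replicate 1 was the lowest library in all 18 classes that had 20 cells in every library.

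**Figure D3:**
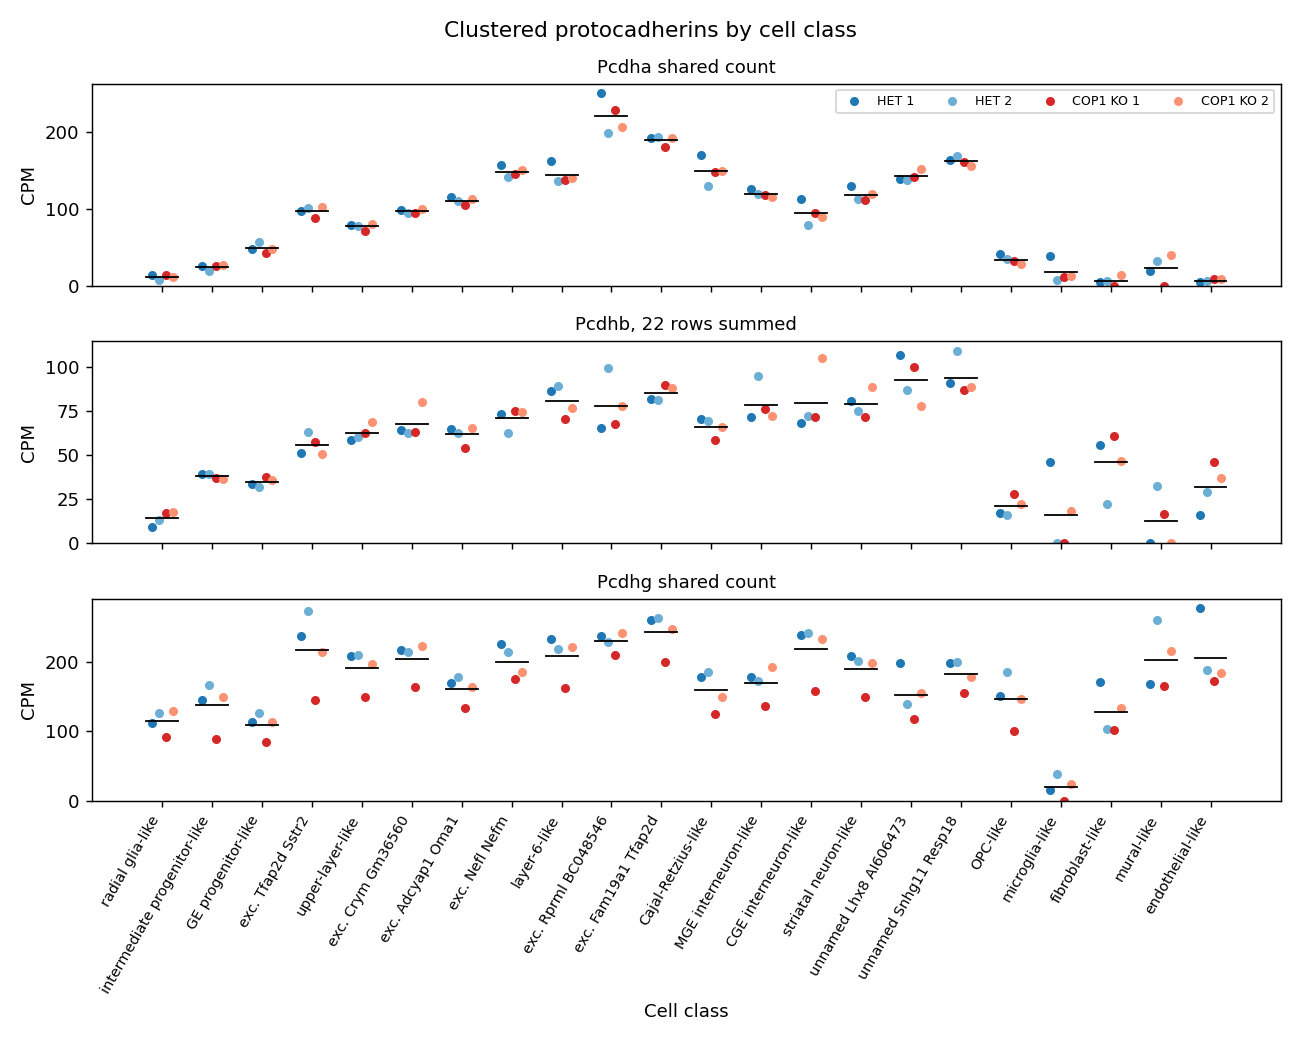
CPM of Pcdha shared, of the 22 Pcdhb rows summed and of Pcdhg shared (3 panels, each from 0) in 22 cell classes; points are the 4 libraries and lines their means. Pcdha shared rises from 11.6 CPM in radial glia-like cells to 222 CPM in the excitatory Rprml cluster, while Pcdhg shared stays between 110 and 243 CPM in all classes but the microglia-like.

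Vessel cells are described by levels, because their classes held too few cells in each library for a test. Cdh5, the VE-cadherin of endothelial junctions, stood at 600 and 444 CPM in HET and 447 and 582 CPM in COP1 KO in the 63 endothelial-like cells. Pcdh12, also called VE-cadherin-2, stood there at 52.3, 45.2, 52.3 and 49.2 CPM, and Pcdh1 at 105, 106, 102 and 90.1 CPM. The 42 mural-like cells, the contractile and pericyte cells around vessels, held 0 counts of Cdh5 and led Pcdh18 at 280, 277, 248 and 256 CPM. Pcdh18 came to 71.4 ± 30.1 CPM in endothelial-like cells, where the mural markers summed to 1920 to 5558 CPM in the 4 libraries and the median cell held 19099 counts. The part of mural RNA in that value was not tested.

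The 92 fibroblast-like cells led Cdh11, at 142, 170, 236 and 198 CPM, with mural-like cells at 97.0 ± 12.9 CPM. They also held Cdh5 at 182, 93.2, 181 and 213 CPM, although 2 of the 9 endothelial markers listed, Pecam1 and Esam, were at 0 in them and the 9 summed to 25.3 to 72.6 CPM, against 8486 to 10243 CPM in endothelial-like cells. At 2000 counts per cell a Cdh5 count was held by 66.1% of endothelial-like cells (95% exact interval 53.0% to 77.7%), 20.7% of fibroblast-like cells (12.9% to 30.4%) and 0.125% of upper-layer-like cells (0.0341% to 0.320%), which serve as the background. Pcdh12 had 0 counts in fibroblast-like cells. Microglia-like cells held 0 counts of Cdh5 and Pcdh1.

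Oligodendrocyte precursor-like cells led Pcdh15, known from the tip links of inner-ear hair cells, at 69.0, 57.8, 51.0 and 55.5 CPM, and its tip-link partner Cdh23 had 37 counts in the whole data set. They also held the highest Cdh20, at 13.8, 9.63, 26.7 and 22 CPM, and Pcdh10 at 79.2 ± 7.26 CPM. The class numbered 35 and 37 cells in the HET libraries, against 118 and 140 with COP1 KO.

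The partners of these proteins were read from lists of genes in the same tables. Of 11 listed catenins and other cadherin-bound proteins that had a row, 10 were tested between radial glia-like and excitatory cells. There 2 were higher and 2 lower at 2-fold. Ctnna1, alpha-E-catenin, was higher in radial glia-like cells by 3.03 (SE 0.0770) and Ctnna2, alpha-N-catenin, lower by 2.06 (SE 0.0812), and Vcl and Jup were the others. Of other cadherin superfamily genes 10 were tested, 2 higher and 4 lower, with Fat1 (3.72, SE 0.178) and Celsr1 (3.16, SE 0.143) higher and the calsyntenins Clstn2 (-3.32, SE 0.149) and Clstn3 (-3.23, SE 0.203) among the lower. Of the promoter-choice genes 3 of 11 were higher, the cohesin subunits Rad21, Stag1 and Stag2, and 0 lower. Of the WAVE complex 1 of 9 was higher, Wasf2, and 2 lower, Wasf1 and Cyfip2. Between layer-6-like and upper-layer-like cells 1 WAVE gene, Wasf1, was higher by 1.19 (SE 0.0642), 1 catenin gene, Vcl, was lower, and 2 superfamily genes, Celsr1 and Fat1, were lower. Each count stands beside the share of all genes called in that comparison, given above.

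The comparison of COP1 KO with HET gave few changes in these genes. Over whole libraries 0 of 49 members passed an adjusted p of 0.05 in edgeR, beside 2 of 16964 genes (0.0118%). 5 members passed at an unadjusted p under 0.05, beside 10.6% of all genes, and DESeq2 called 0 members beside 1.04% of all genes. In whole libraries, fewer cells of a type and less RNA in each cell cannot be told apart. Pcdh8 differed by -0.25 (SE 0.0516, adjusted p = 0.256) and Cdh8 by -0.30 (SE 0.0774, adjusted p = 0.343). Cdh20 differed by 0.69 (SE 0.169, adjusted p = 0.319), beside the larger number of oligodendrocyte precursor-like cells in COP1 KO, whose part in that value was not tested.

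Within radial glia-like cells Pcdh8 and Pcdh17, both delta-2 protocadherins, were lower in COP1 KO. These 2 were called of 17 members tested, 0 higher and 2 lower, beside 3.05% of the 11549 genes tested. Pcdh8 stood at 133 and 138 CPM in HET and 74.5 and 88.8 CPM in COP1 KO, without overlap (log2 difference -0.68, SE 0.111, adjusted p = 0.00949, edgeR). Pcdh17 stood at 59.4 and 64.9 CPM against 36.1 and 35.3 CPM (-0.75, SE 0.153, adjusted p = 0.0264). The Pcdh8 call held in DESeq2 (adjusted p = 0.0414) and in each of the 2 radial glia-like clusters alone (-0.61, adjusted p = 0.0386, and -0.80, adjusted p = 0.0175). Without COP1 KO replicate 1 the differences of Pcdh8 and Pcdh17 were -0.59 and -0.79, in a fit whose spread came from the HET pair alone. The Pcdh17 call did not hold in DESeq2 (adjusted p = 0.236), without HET replicate 2 (-0.69), or in either cluster alone (-0.69, adjusted p = 0.186, and -0.74, adjusted p = 0.134).

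Other measures of the radial glia-like class moved with genotype too, and their part in these results was not tested. The 6 markers of dividing cells summed to 3055 and 2770 CPM in HET and 2230 and 2337 CPM in COP1 KO, and the intermediate progenitor markers to 1090 and 1240 CPM against 929 and 812 CPM. Oligodendrocyte precursor markers summed to 31.3 and 27.3 CPM against 66.3 and 106 CPM.

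**Figure D4:**
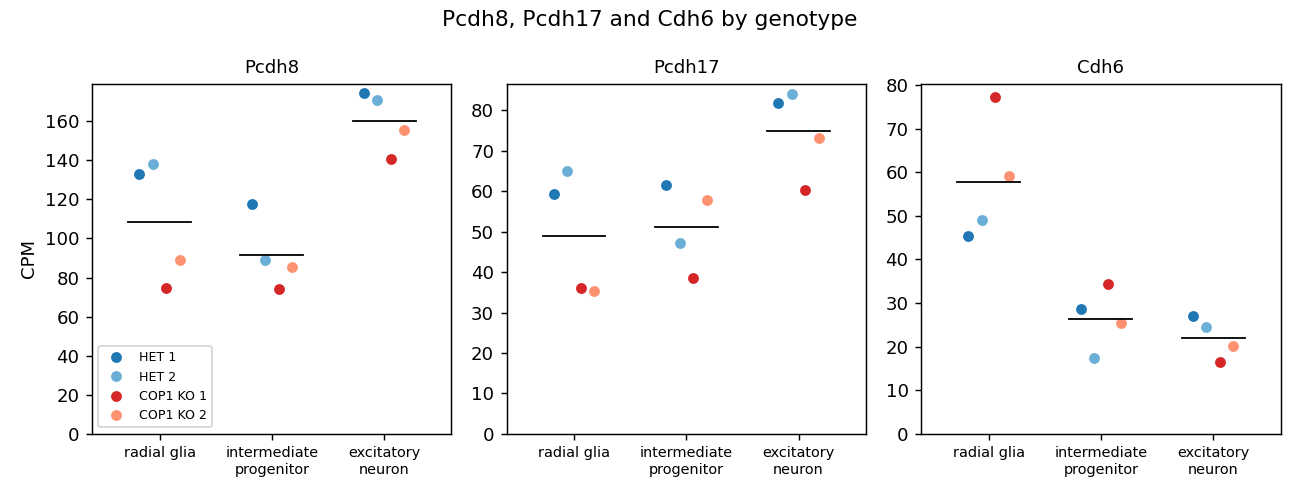
CPM of Pcdh8, Pcdh17 and Cdh6 in 3 cell classes of each library (HET blue, COP1 KO red), with lines at the mean of 4 libraries and axes from 0. In radial glia the 2 COP1 KO points lie below the HET points for Pcdh8 and Pcdh17 and above them for Cdh6, and in excitatory neurons the COP1 KO points lie below the HET points for all 3 genes. Only the differences of Pcdh8 and Pcdh17 in radial glia were called within a class.

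The promoters of the 2 genes are shown because the pair was called together. They lie on chromosome 14, each as the 250 bases before the RefSeq start on the gene's strand, Pcdh8 at chr14:79771313-79771562 (minus strand) and Pcdh17 at chr14:84443313-84443562 (plus strand). Capitals mark a match to the POU octamer ATGCAAAT, read on the other strand.
Pcdh8: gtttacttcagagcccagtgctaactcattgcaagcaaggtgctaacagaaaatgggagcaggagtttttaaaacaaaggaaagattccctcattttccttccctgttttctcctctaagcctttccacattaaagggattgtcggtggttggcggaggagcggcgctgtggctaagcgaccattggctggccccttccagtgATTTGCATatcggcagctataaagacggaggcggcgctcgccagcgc
Pcdh17: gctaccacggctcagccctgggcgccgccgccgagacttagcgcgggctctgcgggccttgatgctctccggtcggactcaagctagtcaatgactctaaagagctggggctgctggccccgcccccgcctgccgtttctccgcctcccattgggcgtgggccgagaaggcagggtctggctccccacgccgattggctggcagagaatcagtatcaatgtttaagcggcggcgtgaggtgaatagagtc
5 motifs were searched on both strands, the ETS core CCGGAAGT, the AP-1 site TGANTCA, the T-box site GGTGTGA, the POU octamer ATGCAAAT and the E-box CAGATG, which 2.88%, 6.75%, 3.33%, 1.60% and 14.4% of all promoter windows of this length hold. The octamer in Pcdh8, starting 47 bases before the start, was the only match in the windows of Pcdh8, Pcdh17, Cdh6 and Cdh9. A window without a match says only that these letters are not in it.

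The size of the change differed between radial glia and neurons for 2 members. A term for class by genotype was tested for 41 members and 14956 genes, of which 2.21% were called. Cdh6 stood at 45.3 and 48.9 CPM in HET and 77.3 and 59.0 CPM in COP1 KO radial glia-like cells (log2 change 0.58, adjusted p = 0.135), and at 27.0 and 24.5 against 16.54 and 20.2 CPM in excitatory cells (-0.46, adjusted p = 0.453), a difference between classes of 1.03 (SE 0.188, adjusted p = 0.00128, edgeR). Pcdh8 changed by -0.68 and -0.19 in the 2 classes, a difference of -0.48 (SE 0.111, adjusted p = 0.0134). Neither was called by DESeq2 (adjusted p = 0.302 and 0.477) or without COP1 KO replicate 1 (0.69 and -0.44), and Pcdh8 was not called without HET replicate 2 (-0.45).

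In every other class fitted, edgeR called 0 members between genotypes, beside few genes of any kind. The share of all genes called was 0.680% in intermediate progenitor-like, 0.175% in ganglionic eminence progenitor-like and 0.0122% in oligodendrocyte precursor-like cells. It was 0.0206% in cortical interneuron-like cells pooled, 0.0218% in the MGE-like and 0.0186% in the CGE-like class, and 0.00974% in striatal-like and 0.0135% in Cajal-Retzius-like cells. Among excitatory neurons it was 0% pooled, in upper-layer-like cells and in the Tfap2d Sstr2 cluster, 0.119% in layer-6-like cells, and 0.116%, 0.00924%, 0.0391%, 0.0324% and 0.0731% in the Adcyap1, Crym, Fam19a1, Nefl and Rprml clusters. At an unadjusted p under 0.05, 42 of the 278 member tests in the 15 separate classes passed (15.1%), 1 to 6 in each class, beside 7.86% of all gene tests, and DESeq2 called 0 members beside 0.0742% of all gene tests. In the pooled classes 7 of 45 members passed in excitatory cells, beside 9.31% of genes, and 3 of 20 in interneuron-like cells, beside 6.08%. 2 unnamed classes, led by Lhx8 and by Snhg11, were not tested for genotype. The nearest was Cdh6 in the Adcyap1 cluster, with a difference of -0.91 (SE 0.160, adjusted p = 0.0698). Of the 3 members with the smallest p in each of the 15 classes without a call, Pcdh17 was among them in 6, with negative differences in all 6 (-0.73 to -0.30). Pcdhg shared was among them in 5 (-0.48 to -0.28) and Cdh4 in 4 (0.19 to 0.87), each with the same sign throughout, and Cdh6 in 5, negative in 4. All classes come from the same 4 libraries, so these signs are not independent of each other.

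Cdh4, Pcdhg shared and Pcdh20 are given here as members in which the library of COP1 KO replicate 1 stood apart. They are examples and not a full list. Over the whole library Cdh4 stood at 52.5 and 54.3 CPM in HET and 74.5 and 55.2 CPM in COP1 KO, Pcdhg shared at 197 and 194 against 141 and 183 CPM, and Pcdh20 at 7.67 and 7.95 against 3.07 and 6.45 CPM. The other COP1 KO library lay nearer to HET in all 3. It did so too for Pcdh17, at 91.9 and 89.5 CPM in HET against 62.3 and 77.2 CPM in COP1 KO replicates 1 and 2. The same held for Cdh5, at 7.05 and 7.05 against 9.24 and 7.57 CPM. Values of Pcdh17 in radial glia-like cells are given above. Of the 18 classes with 20 cells in every library, COP1 KO replicate 1 was the highest for Cdh4 in 15, the lowest for Pcdhg shared in all 18 and the lowest for Pcdh20 in 9. Without COP1 KO replicate 2, so that replicate 1 alone stood for the genotype, the spread came from the HET pair alone and 5 of 50 members were called over whole libraries, beside 7.10% of all genes, namely Cdh4 (0.53), Pcdh8 (-0.30), Pcdh17 (-0.50), Pcdh20 (-1.30) and Pcdhg shared (-0.43). Within the 16 separate classes 21 of 330 member tests were then called (6.36%) in place of 2 of 295, beside 3.47% of all gene tests in place of 0.321%, with Cdh4 higher in 5 classes, Pcdhg shared lower in 5 and Pcdh17 lower in 4.

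**Figure D5:**
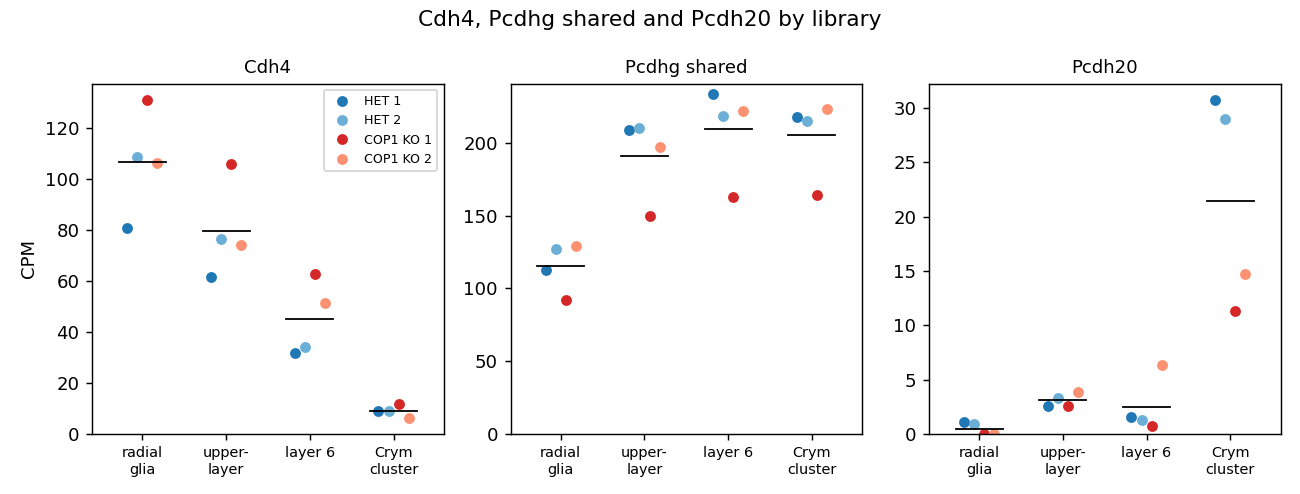
CPM of Cdh4, Pcdhg shared and Pcdh20 in 4 cell classes of each library, with lines at the mean of 4 libraries and axes from 0. COP1 KO replicate 1 (dark red) is highest for Cdh4 and lowest for Pcdhg shared in all 4 classes drawn, and lowest for Pcdh20 in the layer 6 class and the Crym cluster.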

How the data were processed

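Whole-number counts of transcripts per gene and cell barcode, as deposited by the authors in 1 table per library, were used without change of scale. Reads came from a droplet 3′ kit, per the labels' protocols, and were aligned with GSNAP to GRCm38 (mm10), per the submitters' processing notes. How reads were assigned to genes is not given in the sources used here. Barcodes with fewer than 500 genes, over 10% mitochondrial counts or a doublet score of 0.25 or more were left out (222, 1 and 230). The doublet limit was set by hand, since the caller's own limit marked 12 barcodes. 3065 rows with numeric names held 1.69% of counts, and of rows with identical counts 367 were dropped (1.34% of counts). The shared alpha and gamma counts were split off after the files were seen.

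Cells were clustered (scanpy 1.11.5, Leiden 0.10.2, resolution 1.0, 28 clusters) without the members, and clusters were named by marker scores whose limits were set after seeing the clusters. Values are CPM of counts summed over the cells of a class in a library, so n counts libraries, and fold changes come from edgeR 4.0.16 (quasi-likelihood F-test, TMM scaling, filterByExpr, Benjamini-Hochberg over all genes). Genotype was tested over whole libraries and within named classes of at least 20 cells in every library, and class contrasts in 1 fit with a library block at 2-fold. The labels do not say whether each library is 1 embryo, so p-values of the genotype tests measure the spread between 4 libraries. Those of the class contrasts and of the class by genotype term come from fits with a library block. They measure the spread of class sums left after that block. Named members are, in each class, up to 3 with the highest ratio to the median of other classes at 20 CPM or more in every library, and in each contrast up to 5 called in each direction by adjusted p, or the 3 with the smallest p where a genotype comparison has no call. Further called members, and those just short of 2-fold, were named after their values were seen. Members and lists were chosen with earlier results of these data known. Levels are compared between classes within a gene, not between genes, since 3′ counts carry no length scale. Intervals and floors cover counting error only. Alternatives were DESeq2 1.42.0, other scaling, no filter, a finer clustering, doublets kept, no block, rows as deposited and each library left out. With doublets kept the cells were clustered and named again, so the classes changed as well. The whole-library test, the test within radial glia-like cells and the layer-6-like contrast were tried on simulated data, the last in a fit of its own classes alone. The other tests were not.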

Additional observations from a re-analysis of the deposited data

Results flagged for a closer look

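2 members changed differently with genotype in radial glia-like and in excitatory neuron-like cells by a test of the difference itself. For Cdh6 the log2 change from HET to COP1 KO in radial glia-like cells exceeded that in excitatory neuron-like cells by 1.03. For Pcdh8 the same difference was -0.48, the fall being larger in radial glia-like cells. Neither was called with DESeq2 or without COP1 KO replicate 1, where the values were 0.69 and -0.44, and Pcdh8 was not called without HET replicate 2 (-0.45). The range test for a single library far from its group needs 4 libraries and was not made.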

How the results depend on the processing

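No result changed direction. Of 962 values of called members in class contrasts under an alternative, 910 kept their side of the threshold and 52 lost the call, and these came from 24 of the 88 results. Of 103 genotype values 87 kept their side, 9 lost the call and 7 gained it, and of 393 class levels 24 moved by over 1 SD. The cause of these changes was not tested, except where fewer libraries or other rows were used. Members called over whole libraries numbered 0 in the main setting and 0 to 5 with 1 library left out, 5 being without COP1 KO replicate 2. Calls within the separate classes numbered 2 in the main setting, 1 with DESeq2, 9 with no filter and 2 to 21 with 1 library left out. In radial glia-like cells they numbered 2, against 1 with DESeq2, 1 in each of 2 clusters alone and 1 to 4 with 1 library left out. The class by genotype term called 2, against 0 with DESeq2 and 0 to 2 with 1 library left out. Members called between MGE-like and CGE-like cells rose from 5 to 11 with doublets kept, where the CGE-like class held 836 cells in place of 388. Between radial glia-like and excitatory cells they rose from 19 to 35 with no filter and 32 with rows as deposited, where each shared count enters once per row. Intermediate progenitor against radial glia gave 15, against 9 with resolution 2.0, 9 with doublets kept and 28 with rows as deposited, and ganglionic eminence progenitors 17 against 30 with rows as deposited. No paired analysis was possible because the labels give no replicate numbers, those used here being names given in accession order. Contrasts with layer 5 were not run, since no cluster of the main clustering met its markers. With doublets kept, a cluster of 1290 cells did. With 2 libraries a group and few counts, small changes in low members such as Cdh9, Cdh15 and the beta genes were not detectable at this depth.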
